A study of Homo sapiens with 8 samples.

Results

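Nuclear receptors are transcription factors that are switched by small lipid-soluble ligands such as steroids, retinoids, thyroid hormone, oxysterols and fatty acids, although the orphan members have no settled ligand. Most bind DNA as dimers at repeats of a short hexamer, and many pair with a retinoid X receptor. They exchange corepressors for coactivators when ligand binds, so enhancers near the receptor genes themselves bear on which hormones a cell can read. In the developing brain, retinoid and thyroid hormone receptors are known for their part in the timing of neuronal differentiation, and the NR4A receptors are known as immediate-early genes that follow neuronal activity, growth factors and stress.

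The enhancers of 44 human nuclear receptor genes, out of 20046 protein-coding genes, were examined in 4 medulloblastoma lines. The receptors came from a list of names, which did not hold every human receptor, and the rule that defines them uses no measured value, although the list was chosen with earlier results of these data known. A region was assigned to a receptor when it overlapped the gene body or when its nearest edge lay within 50 kb of the transcription start site (TSS). Coordinates are those of GRCh38, with genes as in GENCODE 44.

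MB002, D425 and HD-MB03 are lines of group 3 medulloblastoma (G3-MB), and UW228 carries the label of the SHH subtype. Each line was profiled, with no treatment named, with 1 library for H3K27Ac, a histone mark of active enhancers, and 1 input library of genomic DNA. The study set G3-MB lines against UW228 to find enhancers of the subtype. MB002 and HD-MB03 were grown in Tumor Stem Media with EGF, FGF, LIF and a supplement labelled B27(-A), whereas D425 and UW228 were grown in DMEM with fetal bovine serum. Medium and line cannot be told apart. UW228 was the only line of its subtype, and its table was made at a later date and in another output folder than the others. The methods give a common q threshold for the peak calls. Subtype, line and date of processing cannot be told apart either. The median region signal was 1690 in UW228, against 890, 717 and 846 in the 3 G3-MB lines, so some signals are also given over that median. With 1 library a line there was no spread between replicates, and a permutation over the 4 lines could not give a p below 0.25, so the values below are descriptions without a test. Read depth is unknown.

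The deposited tables of MB002, D425, HD-MB03 and UW228 held 26072, 26317, 15286 and 20875 regions, of which 363, 431, 302 and 753 were called super-enhancers (SEs). The signal of a region was its H3K27Ac value minus its input value, each in rpm per base pair times the length of the region (rpm, reads scaled to library size), and rank 1 was the highest signal. Of 8 G3-MB marker genes, 4, 5, 4 and 1 reached the 1000 top-ranked regions in MB002, D425, HD-MB03 and UW228, and the 1 of UW228 was *MYC* at rank 763. *OTX2*, a transcription factor that marks G3-MB, had its best region at ranks 3, 3 and 5 in MB002, D425 and HD-MB03 and had no region in UW228. Of 8 SHH marker genes, 3 did so in HD-MB03, 1 in D425 and 0 in MB002 or UW228, and *ATOH1* had no region in any line. Of 10 mesenchymal and fibroblast marker genes, 3 did so in UW228 (*COL1A2* at rank 75, *VIM* at rank 401 and *COL3A1* at rank 546), 2 in HD-MB03 and 1 each in MB002 and D425. In MB002, D425, HD-MB03 and UW228 this limit was reached by 8.82%, 9.6%, 10.9% and 6.33% of all genes. UW228 is therefore called by its name here.

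The sequence upstream of 1 start of each of 6 receptors is shown because the strong regions described below covered these starts in at least 1 line. The same held for starts of *RARA*, *RARG* and *RXRA*, and the 6 were picked to show different receptor groups. Each is the 250 bases before a RefSeq start on GRCh38.p14, read 5′ to 3′. Capitals mark, in *RARB*, 2 copies of GTTCA with 6 bases between them and those 6 bases, the letters of a known retinoic acid response element, and the letters TGACG, or their complement CGTCA, in *NR4A3* and *NR3C1*. TGACG is the core of the cyclic AMP response element.

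RARB, chr3:25428013-25428262, + strand: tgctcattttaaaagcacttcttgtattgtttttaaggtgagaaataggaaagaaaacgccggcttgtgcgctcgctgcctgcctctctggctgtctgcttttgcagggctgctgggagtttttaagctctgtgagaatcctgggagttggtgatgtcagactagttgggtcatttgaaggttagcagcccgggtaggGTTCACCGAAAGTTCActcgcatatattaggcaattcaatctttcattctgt
NR2F1, chr5:93582972-93583221, + strand: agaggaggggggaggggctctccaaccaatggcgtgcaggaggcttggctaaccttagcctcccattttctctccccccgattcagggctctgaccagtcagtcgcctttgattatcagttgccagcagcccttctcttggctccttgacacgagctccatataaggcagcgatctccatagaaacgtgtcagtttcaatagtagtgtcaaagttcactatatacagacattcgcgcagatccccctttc
NR4A1, chr12:52037465-52037714, + strand: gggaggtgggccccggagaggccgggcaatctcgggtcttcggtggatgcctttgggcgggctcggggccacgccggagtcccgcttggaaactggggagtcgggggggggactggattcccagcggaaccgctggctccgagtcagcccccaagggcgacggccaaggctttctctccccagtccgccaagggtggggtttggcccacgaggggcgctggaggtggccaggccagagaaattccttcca
NR4A3, chr9:99821635-99821884, + strand: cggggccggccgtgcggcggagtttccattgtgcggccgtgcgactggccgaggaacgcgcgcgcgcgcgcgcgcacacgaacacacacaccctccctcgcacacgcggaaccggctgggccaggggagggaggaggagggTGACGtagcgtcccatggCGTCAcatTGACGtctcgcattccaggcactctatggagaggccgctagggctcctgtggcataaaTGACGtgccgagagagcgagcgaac
NR1D1, chr17:40100590-40100839, - strand: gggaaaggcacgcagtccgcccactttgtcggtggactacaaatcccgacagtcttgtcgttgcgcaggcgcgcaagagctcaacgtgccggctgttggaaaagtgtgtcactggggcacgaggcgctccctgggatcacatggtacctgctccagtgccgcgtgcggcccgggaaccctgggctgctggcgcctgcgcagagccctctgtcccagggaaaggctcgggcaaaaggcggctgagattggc
NR3C1, chr5:143403687-143403936, - strand: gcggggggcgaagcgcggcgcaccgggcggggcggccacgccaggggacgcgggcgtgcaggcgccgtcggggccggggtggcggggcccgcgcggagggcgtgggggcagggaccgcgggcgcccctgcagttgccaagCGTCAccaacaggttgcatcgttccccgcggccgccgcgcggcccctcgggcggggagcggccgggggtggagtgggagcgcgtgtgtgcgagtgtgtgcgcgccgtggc

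The *RARB* repeat lay 52 to 37 bases before the start. Any 2 copies of GTTCA at this spacing, searched on both strands, were held by 20 of 35116 RefSeq promoter windows of 300 bases, or 0.057% of them. *NR4A3* held TGACG 4 times within the 250 bases, as many as in 83 windows, or 0.236% of all. The printed *NR3C1* window held it 1 time, and 21.2% of all windows held it at least as often. TGACG was in 22.1% of receptor windows against 24.6% of all windows of full length. Both patterns were searched after the sequences had been seen. Among 95 windows of 40 receptors, 15.8% held AGGTCA, the consensus hexamer of the receptors, against 13.8% of all windows, and 0 held it as a direct repeat with a spacing of 1, 2, 4 or 5 bases, which 0.0228%, 0.00285%, 0.0199% and 0.0057% of all windows did. AGAACA, the glucocorticoid receptor hexamer, was in 13.7% of receptor windows against 14.8% of all windows. TAATCC, the letters bound by OTX2 and CRX, was in 5.26% against 6.36%. The AP-1 letters TGANTCA were in 5.26% against 7.71%. Each was searched on both strands. *HNF4G*, *NR2F6*, *NR4A2* and *VDR* had no window in the sequence table.

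At least 1 region was assigned to 41 of 44 receptors in MB002, where 70.7% of all protein-coding genes had one. The count was also 41 in D425, against 72.8% of all genes. It was 34 in HD-MB03, against 58.2%, and 30 in UW228, against 61.8%. In percent, these counts were 93.2 in MB002 and D425, 77.3 in HD-MB03 and 68.2 in UW228. *PGR*, the progesterone receptor, was the only receptor with no region in any line, which held for 11.3% of all genes. There were 25 receptors with a region in every line, or 56.8% against 36% of all genes. Receptor genes were longer than the rest, with a median of 65.4 kb against 27.4 kb, and a longer gene overlaps more regions under this rule.

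No receptor had regions in UW228 alone, which held for 3.57% of all genes. Regions in at least 1 G3-MB line and none in UW228 were found for 13 receptors, or 29.5% against a background of 26.9%. These were *ESRRB*, *ESRRG*, *HNF4A*, *HNF4G*, *NR1H2*, *NR1H4*, *NR1I2*, *NR2C2*, *NR4A3*, *NR5A2*, *RARG*, *RORB* and *RXRG*. Their share was near that of all genes.

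A receptor was called strong in a line when its best region was among the 1000 top-ranked regions of that line. This held for 8 receptors in MB002, or 18.2% against a background of 8.82%, namely *ESRRA*, *NR1D1*, *NR1I3*, *NR4A2*, *RARA*, *RARG*, *RORA* and *THRA*. In D425 there were 4, or 9.09% against 9.6%, which were *NR2F6*, *NR3C1*, *NR4A2* and *RXRA*. In HD-MB03 there were 6, or 13.6% against 10.9%, which were *NR1H3*, *NR1I3*, *NR4A1*, *NR4A2*, *NR4A3* and *RARA*. In UW228 there were 4, or 9.09% against 6.33%, which were *NR2F1*, *NR6A1*, *PPARD* and *RARB*. The shares of D425 and HD-MB03 were thus near the background, and that of MB002 was the farthest above it. With the TSS window alone and no overlap with the gene body, MB002 kept a count of 8 against a background of 7.78%, whereas the count of UW228 fell to 2 against 5.26%. Ranked by mean signal per base pair, which does not grow with the length of a region, the count of MB002 fell to 1, or 2.27% against 9.51%, and that of D425 to 1 against 8.74%. MB002 was then below the background.

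Altogether 18 receptors were strong in at least 1 line, or 40.9% against 24.4% of all genes. Of these, 14 were strong in G3-MB lines and not in UW228, or 31.8% against 18.1%. The 4 strong receptors of UW228 were strong in no G3-MB line, or 9.09% against 3.68%. By mean signal per base pair there were also 4, with *NR2F2* and *THRB* in place of *NR2F1* and *PPARD*. A receptor strong in both was not found, against 2.65% of all genes. *NR1I3*, *NR4A2* and *RARA* were the 3 receptors strong in 2 or more G3-MB lines and not in UW228, or 6.82% against 5.55%. That count was 1 without MB002 and 1 without HD-MB03. The other 15 of the 18 were strong in 1 line each. At the threshold, the last value inside was rank 908 of *ESRRA* in MB002 and the first outside was rank 1134 of *NR2F6* in HD-MB03.

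SE-associated receptors, with at least 1 region that carried the deposited SE call, were *NR1D1*, *NR1I3*, *RORA* and *THRA* in MB002, or 9.09% against a background of 3.35%. *NR2F6* was the 1 such receptor in D425, or 2.27% against 4.34%. The 3 of HD-MB03 were *NR4A1*, *NR4A2* and *NR4A3*, or 6.82% against 3.1%. The 3 of UW228 were *NR2F1*, *PPARD* and *RARB*, or 6.82% against 4.98%. No receptor was SE-associated in more than 1 line. How often this held over all genes was not counted, so it is not read as a trait of the receptors.

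**Figure D1:**
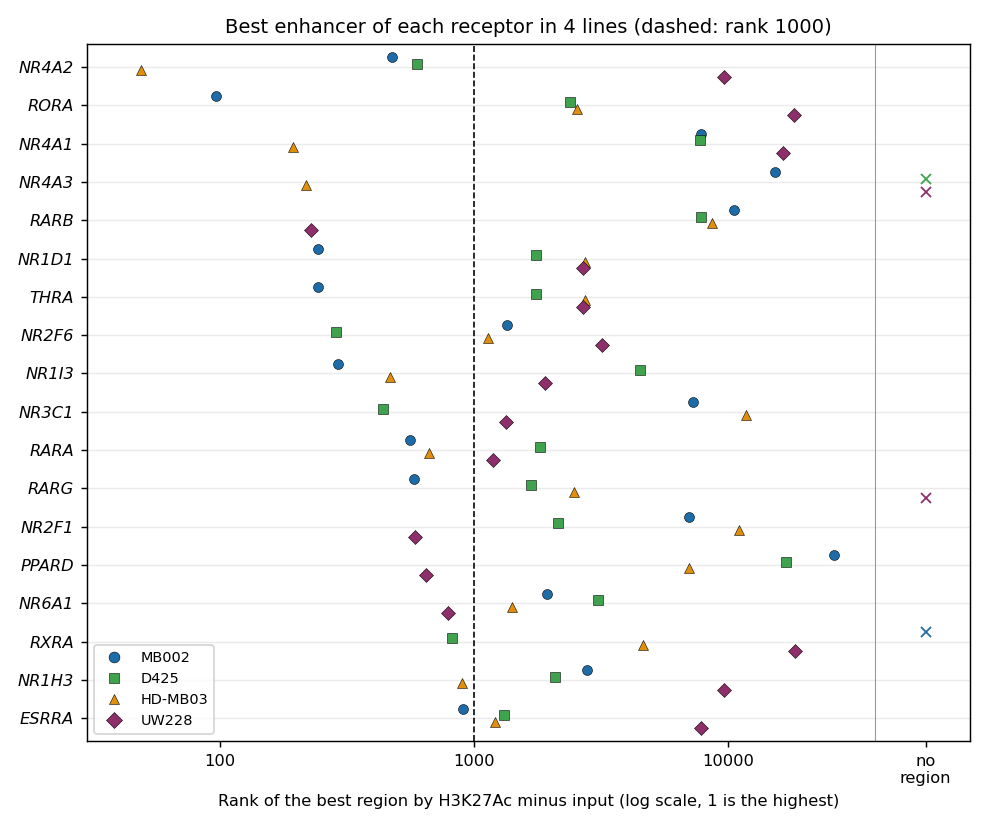
Best rank of each of the 18 receptors with a strong enhancer, on a log axis where 1 is the highest signal, in the 4 lines, with 1 point a line and the limit of 1000 drawn as a line. The ranks of *RARB* and *PPARD* in UW228, 228 and 650, stand apart from those of the G3-MB lines, and *NR4A2* is inside the limit in all 3 G3-MB lines.

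**Figure D2:**
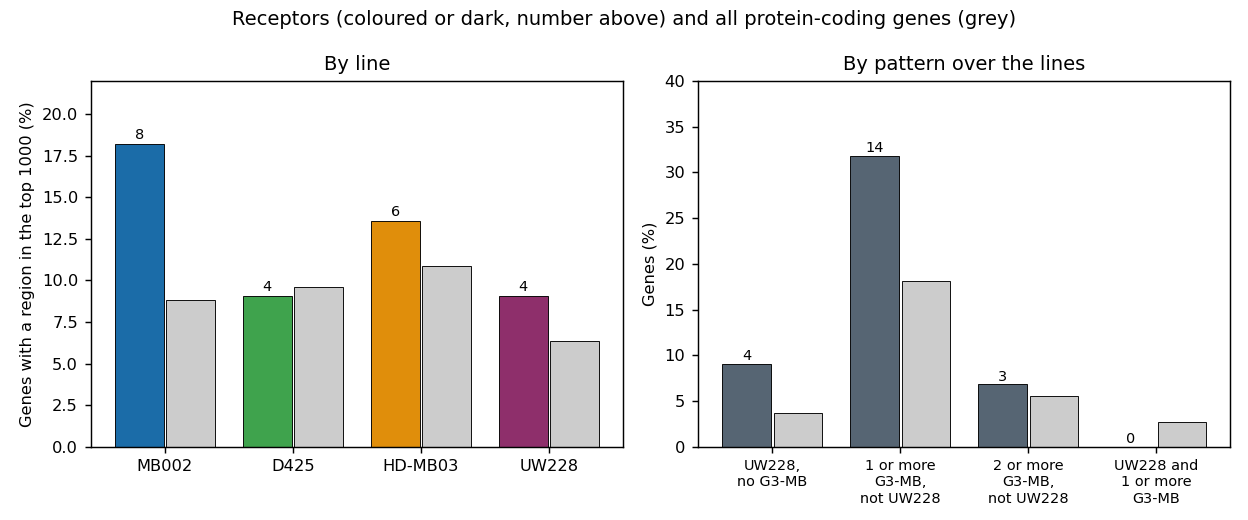
Percent of the 44 receptors and of all 20046 protein-coding genes with a strong enhancer (among the 1000 top-ranked regions) in each line, without error bars since each line had 1 library, and on the right the same by pattern over the lines. In MB002 18.2% of receptors stand above 8.82% of all genes, and in D425 the shares of 9.09% and 9.6% are close.

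The NR4A receptors are orphan receptors of the immediate-early response that bind DNA without a classical ligand. *NR4A2* (Nurr1), known for its role in dopamine neurons, is on the minus strand (chromosome 2, 156324437 to 156342348). Its best region in MB002, D425, HD-MB03 and UW228 had a signal of 27707, 21839, 50780 and 1970, at ranks 478, 597, 49 and 9677. The 3 G3-MB lines were all above UW228, and the highest of them was 25.8 times UW228, with 60.1 and 1.17 over the median region of the line. *NR4A2* was the only receptor strong in all 3 G3-MB lines. That pattern ended with 500 top-ranked regions, where D425 was lost, and by mean signal per base pair or by the SE call, where HD-MB03 alone was strong. The HD-MB03 region ran from 156331823 to 156345088 over the annotated TSS and was a SE of 2 peaks. Regions of MB002 and D425 covered 98.3% and 95.9% of its length, and that of UW228 covered 64% and lay upstream of the canonical start that the G3-MB regions covered. In the same order of lines the mean signal per base pair was 1.38, 1.17, 3.83 and 0.232. The relative input density, which is the input per base pair over the median region of the line, was 1.04, 1.62, 0.946 and 1.16. After division by it *NR4A2* was not strong in D425, so the pattern of all 3 G3-MB lines ended there too. When regions over a TSS were left out, *NR4A2* was strong in no line.

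*NR4A1* (Nur77), on chromosome 12 from 52022832 to 52059507, had its best region at rank 194 in HD-MB03, a SE of 39 kb with 11 peaks from 52025523 to 52064534. Its signal there was 28396, against 2235 in MB002, 1992 in D425 and 392 in UW228, whose ranks were 7840, 7767 and 16413. The best regions of D425 and UW228 lay 45.1 and 49.8 kb from the start, with *ACVR1B* as their closest gene. Regions that overlapped the SE summed to 1552 in D425 and 212 in UW228. HD-MB03 was 12.7 times the next line, and the other lines covered between 1.33% and 22.9% of the length of its SE. The *NR4A1* promoter printed above lay inside this SE and in no region of the other lines. *NR4A3* (NOR1), on chromosome 9 from 99821855 to 99866891, had a SE at rank 219 in HD-MB03 that consisted of 1 peak of 5.76 kb over the start, with a signal of 26999 and a mean of 4.68 per base pair. MB002 had a best rank of 15254 and a signal of 606, and D425 and UW228 had no region. All 3 NR4A genes were thus SE-associated in HD-MB03, and their relative input densities there were 0.946, 1.01 and 0.977, close to the median region. With regions over a TSS left out, *NR4A1* fell to rank 6569 and *NR4A3* to rank 11891 there, and by mean signal per base pair *NR4A1* fell to rank 4073. Outside HD-MB03, *NR4A2* was strong in the other G3-MB lines but *NR4A1* and *NR4A3* were not.

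The retinoid receptors divided between the lines. *RARB*, the retinoic acid receptor that is itself a known target of retinoic acid, spans chromosome 3 from 24687887 to 25597932. Its best region had a signal of 45800 in UW228, against 1952 in D425, 1376 in MB002 and 634 in HD-MB03. UW228 was thus 23.5 times the next line, at rank 228 against ranks 7857, 10529 and 8661. Over the median region of each line it was 27.1 in UW228 and 2.72 in D425, or 9.95 times. The UW228 region was a SE of 65.3 kb with 11 peaks, from 25448954 to 25514271, with *TOP2B* as the gene of the closest start. MB002 and HD-MB03 had no region inside it, and D425 covered 142 bp. A further strong region of UW228, at rank 952 from 25422840 to 25434212, held the printed promoter with the response element pattern. No G3-MB line had a region over that promoter. UW228 had 12 regions at the gene, with a summed signal of 96452, whereas MB002 had 4, D425 7 and HD-MB03 1, with sums of 2800, 4776 and 634. In the same order (UW228, MB002, D425, HD-MB03) these covered 147914, 6937, 20398 and 1169 bp, at a mean signal of 0.652, 0.404, 0.234 and 0.542 per base pair. The annotated gene starts far upstream of this promoter, so *RARB* fell to rank 3180 in UW228 when the TSS window alone was used. It fell to the same rank with the closest gene alone.

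*RARA*, the retinoic acid receptor present in most tissues, lies on chromosome 17 from 40309180 to 40357643 and had its best region at ranks 563, 1823, 663 and 1184 in MB002, D425, HD-MB03 and UW228. The signals were 25232, 10041, 15583 and 18476. MB002 was 1.37 times UW228, which was above D425 and HD-MB03 in signal. That order turned on the scale: over the median region of each line, the signal summed at *RARA* was 35.8 in MB002, 18.4 in HD-MB03, 17.5 in D425 and 15.8 in UW228. The relative input density was 1.56 in MB002 and 0.518 in UW228. After division by it *RARA* fell to rank 1020 in MB002 and was strong in UW228 and a G3-MB line, and it left the receptors strong in 2 or more G3-MB lines only. *RARG*, a receptor of skin and cartilage on chromosome 12 from 53210567 to 53232980, had signals of 24779, 10781 and 4974 in the 3 G3-MB lines, at ranks 579, 1685 and 2471, and no region in UW228. In MB002 and D425 the best region overlapped the start of the gene. The MB002 rank fell to 6290 by mean signal per base pair and to 20236 with regions over a TSS left out.

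*RXRA*, the shared dimer partner of the retinoid, thyroid, PPAR and LXR receptors, lies on chromosome 9 from 134317098 to 134440585. Its best region in D425, HD-MB03 and UW228 had a signal of 17859, 2127 and 219, at ranks 821, 4617 and 18414, and MB002 had none. D425 was 8.4 times the next line and had a further region over another start at rank 1178. The strong call was lost under 4 of 14 alternative settings, with a rank of 15706 by mean signal per base pair. No other line had a region inside the best region of D425. None of the 3 RXR genes was strong outside D425, and the best of the other RXR ranks was 1151 for *RXRG* in D425.

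**Figure D3:**
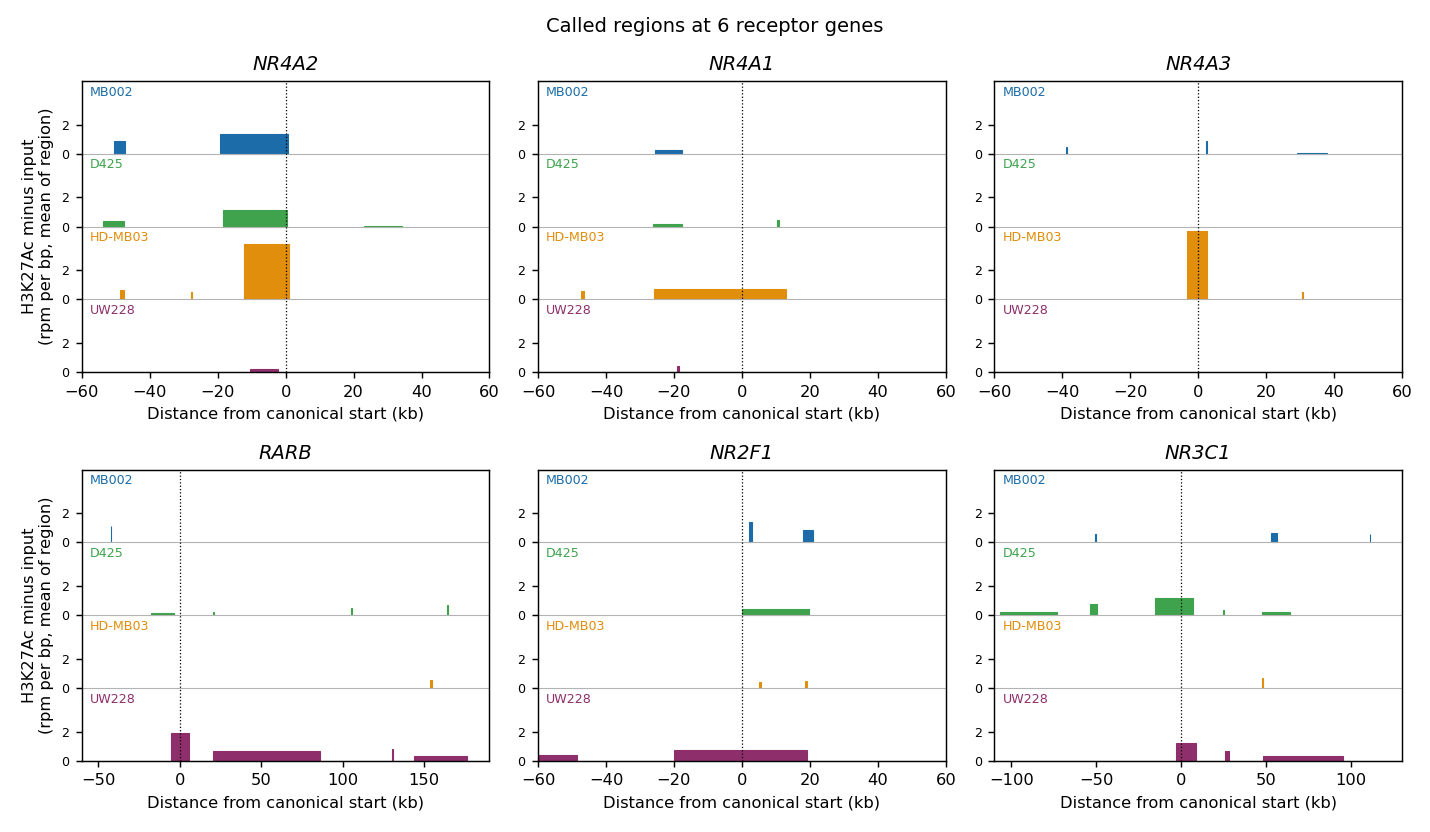
Regions at the loci of 6 receptors in the 4 lines, with the distance from the start of the canonical transcript in kb on the x axis, 1 row a line and the height of a box showing mean signal in rpm per base pair. Regions beyond the x axis are not drawn. The highest *RARB* boxes are those of UW228, and the *NR4A2* region lies over the canonical start in the 3 G3-MB lines, with the highest mean, 3.83, in HD-MB03, and upstream of it in UW228.

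*RORA*, the orphan receptor mutated in the staggerer mouse and required for Purkinje cells, spans chromosome 15 from 60488284 to 61229302. The signal of its best region was 61087 in MB002, at rank 97. D425, HD-MB03 and UW228 had 8003, 4777 and 231, at ranks 2396, 2551 and 18228. MB002 was 7.63 times the next line. It held 12 regions at the gene, of which those at ranks 97 and 134 were SEs and that at rank 814 was also strong. The SE of rank 97 ran over the start from 61164951 to 61230453 and that of rank 134 from 60508183 to 60590581 inside the gene near its other end. HD-MB03 covered 20.4% of the length of the former, D425 covered 0.292% and UW228 had no region there. D425 and HD-MB03 had 11 and 9 regions at the gene, all outside the 1000 top-ranked, and UW228 had 1 of 469 bp. By mean signal per base pair in place of summed signal, *RORA* was no longer strong in MB002.

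*THRA*, the main thyroid hormone receptor of the brain, and *NR1D1* (REV-ERBα), a repressor in the circadian clock, overlap tail to tail on chromosome 17, from 40058290 to 40093867 and from 40092793 to 40100589. In each line both had the same best region, so these values cannot tell them apart. It had a signal of 40167 in MB002, 10342 in D425, 10241 in UW228 and 4397 in HD-MB03. The HD-MB03 region lay outside the MB002 region, with *MED24* as its closest gene, and the HD-MB03 region inside it had a signal of 3294 at rank 3402. MB002 was 3.88 times the next line. Its region, a SE at rank 244 from 40090013 to 40125066, held the *NR1D1* promoter, and *NR1D1* was its closest gene. The ranks of D425, HD-MB03 and UW228 were 1760, 2730 and 2688. The relative input density was 0.594 in UW228, 0.837 in HD-MB03, 1.5 in MB002 and 2.39 in D425, and after division by it both genes were strong in UW228 as well as in G3-MB.

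*NR3C1*, the glucocorticoid receptor, lies on chromosome 5 from 143277931 to 143435512. Its best region had a signal of 26052 in D425 and 17092 in UW228, but 2513 in MB002 and 240 in HD-MB03. The ranks were 438, 1340, 7269 and 11783 in that order. D425 and UW228, the lines grown in serum, were thus both above the lines grown in stem cell medium, and D425 was 1.52 times UW228, or 3.59 times over the median region. The D425 region from 143396768 to 143418840 covered 5 RefSeq promoter windows of the gene, and UW228 covered them with a region at rank 1635. No region of MB002 or HD-MB03 lay inside the D425 region. Summed over all regions of the gene the signal was 41259 in D425, 33159 in UW228, 2996 in MB002 and 240 in HD-MB03, over 76299, 61097, 4544 and 364 bp. The mean per base pair was 0.541, 0.543, 0.659 and 0.658, so the sums differed by the length covered more than by the mean. In D425 the gene was not SE-associated, and its rank fell to 2327 by mean signal per base pair and to 1038 with regions over a TSS left out. With no input subtraction *NR3C1* was strong in UW228 as well as in D425. With the closest gene alone it was strong in 2 or more G3-MB lines and not in UW228. A line grown in stem cell medium was then strong, and the split by medium did not hold. Whether the medium had a part in this was not tested.

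The COUP-TF receptors are orphan repressors and activators of neural and mesenchymal development. *NR2F1* (COUP-TFI), on chromosome 5 from 93583222 to 93594611, had a signal of 28269 in UW228, against 8773 in D425, 2645 in MB002 and 306 in HD-MB03. The ranks were 589, 2140, 7011 and 11029. UW228 was 3.22 times the next line, or 1.37 times over the median region, and its region was a SE of 39.1 kb over the start, of which D425 covered 48.4%. Over the median region the summed signal was 24.7 in UW228 and 12.2 in D425. By mean signal per base pair, *NR2F1* fell to rank 8807 in UW228. *NR2F6* (EAR2), on chromosome 19 from 17231883 to 17245919, had its lowest signal in UW228, with 32607 in D425, 14216 in MB002, 10494 in HD-MB03 and 8742 in UW228. It was a SE in D425 at rank 287, and the ranks of MB002, HD-MB03 and UW228 were 1352, 1134 and 3193. The D425 rank fell to 2070 by mean signal per base pair and to 9485 with regions over a TSS left out. Regions of the other lines covered between 57.1% and 99.7% of the D425 SE.

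*PPARD*, a fatty acid receptor of broad expression on chromosome 6 from 35342558 to 35428191, had a signal of 26791 in UW228. In HD-MB03 it was 998, in D425 344 and in MB002 0, since the input was as high as the H3K27Ac value. The UW228 region was a SE of 46.7 kb inside the gene at rank 650 and was 26.8 times the next line, or 13.4 times over the median region of each line. No G3-MB line covered more than 2.76% of it. By mean signal per base pair *PPARD* fell to rank 12379 in UW228. *NR6A1* (GCNF), an orphan receptor of germ cells and early embryos on chromosome 9 from 124517275 to 124771311, had a signal of 23902 in UW228, 11042 in MB002, 8745 in HD-MB03 and 6354 in D425. The ranks were 791, 1932, 1416 and 3079, so the G3-MB lines were outside the limit of 1000. The best regions of MB002 and HD-MB03 overlapped each other, and those of UW228 and D425 lay elsewhere. That of D425 was upstream of the gene with *WDR38* as its closest gene. D425 and HD-MB03 had no region inside the UW228 region. Over the median region of each line, the best region of *NR6A1* was 14.1 in UW228 and 12.4 in MB002. The signal summed at *NR6A1* was 31.2 in MB002 and 26.4 in UW228 on that scale, so that by the sum UW228 was no longer the highest line. The UW228 region of *NR6A1* had a relative input density of 1.49, the highest of the strong receptor regions of that line, and after division by it *NR6A1* was not strong.

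Among the sterol and xenobiotic sensors, *NR1I3* (CAR), on chromosome 1 from 161229666 to 161238244, had best regions with a signal of 36954 in MB002, 19009 in HD-MB03, 13295 in UW228 and 4169 in D425. The ranks were 293, 468, 1900 and 4519. None of these regions overlapped the gene, and *NR1I3* was the closest gene of none. Its strong call was lost under 5 of 14 alternative settings, with a rank of 12633 in MB002 under a TSS window of 25 kb. *NR1H3* (LXRα), the oxysterol receptor on chromosome 11 from 47248300 to 47269033, had 12706 in HD-MB03 at rank 901, 8987 in D425, 8101 in MB002 and 1989 in UW228. The closest gene of the HD-MB03 region was *MADD*. *ESRRA* (ERRα), an orphan receptor of mitochondrial genes on chromosome 11 from 64305497 to 64316743, had 18820 in MB002 at rank 908. D425, HD-MB03 and UW228 had 13026, 9951 and 2890. All 3 G3-MB lines were above UW228 for *NR1H3* and *ESRRA*, but not at the same places. No region of D425 or UW228 overlapped the *NR1H3* region of HD-MB03. The *ESRRA* region of HD-MB03 had *CCDC88B* as its closest gene, and those of the other lines had *GPR137*. All these regions had another gene as the closest, although those of MB002 and HD-MB03 overlapped *NR1H3*. The strong call of *ESRRA* was lost under 7 of 14 alternative settings.

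**Figure D4:**
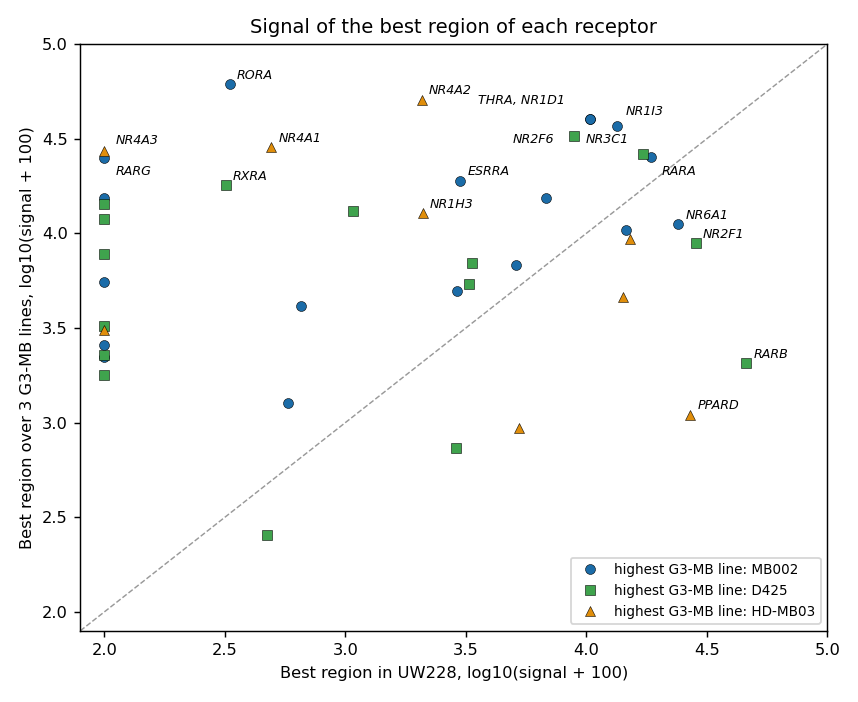
Signal of the best region of each receptor in UW228 (x axis) and in the highest of the 3 G3-MB lines (y axis), both as log10 of signal plus 100, with the marker giving that G3-MB line and the dashed line marking equal signal. Points at the left edge have no region in UW228; *RARB*, *PPARD*, *NR2F1* and *NR6A1* lie below the dashed line among the labelled receptors, and *RORA* lies farthest above it among receptors with a region in UW228.

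By family, the NR1 group of 18 genes, which holds the thyroid, retinoic acid, PPAR, REV-ERB, ROR, LXR and vitamin D receptors among others, had 6 strong members in MB002 (33.3% against 8.82% of all genes), 3 in HD-MB03 (16.7% against 10.9%), 2 in UW228 (11.1% against 6.33%) and 0 in D425 (against 9.6%). *THRA* and *NR1D1* were counted for 1 shared region, and by mean signal per base pair none of the 6 was strong in MB002. The NR2 group of 12 genes had 2 in D425 (16.7% against 9.6%), 1 in UW228 (8.33% against 6.33%) and none in MB002 or HD-MB03. The NR3 group of 8 steroid and estrogen-related receptors had 1 in MB002 (against 8.82%) and 1 in D425 (against 9.6%). The NR4 group had all 3 of its genes in HD-MB03 (against 10.9%) and 1 each in MB002 (against 8.82%) and D425 (against 9.6%). With regions over a TSS left out, no NR4 gene was strong in HD-MB03. The NR5 and NR6 group of 3 genes had 1 in UW228 (against 6.33%). The estrogen receptors *ESR1* and *ESR2*, the mineralocorticoid receptor *NR3C2* and *PGR* were strong in no line.

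The other 25 receptors had their best rank in any line between 1151 and 16570, with a median of 3644. The lowest was *RXRG* in D425 and the highest *RXRB* in UW228. In 5 of them, *ESR2*, *NR2C1*, *PPARA*, *RXRB* and *VDR*, the best rank was that of UW228. In MB002, D425, HD-MB03 and UW228 the median best rank of receptors with a region was 5036, 4390, 3402 and 5341, against 6727, 6182, 4060 and 6839 for all protein-coding genes with a region.

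The wider pathway was read from lists of coregulators, of retinoid and thyroid ligand supply and of known target genes. Of 20 coregulators, 5 were strong in HD-MB03, or 25% against 10.9% of all genes. There were 4 in D425 (20% against 9.6%), 3 in MB002 (15% against 8.82%) and 0 in UW228 (against 6.33%). *NRIP1* (RIP140), a ligand-dependent corepressor, ranked 634, 6817, 263 and 6597 in MB002, D425, HD-MB03 and UW228. *NSD1*, a histone methyltransferase that binds receptors, ranked 322 in D425 and no better than 5531 elsewhere. The best coregulators of UW228 were the coactivator *PPARGC1A* at rank 1034 and the corepressor subunit *TBL1XR1* at rank 1768.

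Of 16 genes of ligand supply, 4 were strong in D425 (25% against 9.6%), 3 in UW228 (18.8% against 6.33%), 2 in MB002 (against 8.82%) and 1 in HD-MB03 (6.25% against 10.9%). *CRABP2*, which carries retinoic acid to the nucleus, ranked 102, 339, 39 and 875 in MB002, D425, HD-MB03 and UW228 and was strong in every line. The retinoic acid synthase *ALDH1A2* ranked 1533, 79, 1512 and 787, and *ALDH1A1*, of the same function, ranked 328 in UW228, 926 in D425 and 16665 in MB002 and had no region in HD-MB03. *DHRS3*, which reduces retinal, ranked 669, 399, 7176 and 10731. *ALDH1A3*, a further synthase of the same family, ranked 19365, 21805, 3408 and 14935 and was strong in no line. It was named after its values were seen.

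Of 20 target genes, 7 were strong in D425 (35% against 9.6%), 5 in HD-MB03 (25% against 10.9%), 4 in UW228 (20% against 6.33%) and 2 in MB002 (10% against 8.82%). *KLF9*, a target of glucocorticoid and thyroid hormone receptors, ranked 320, 156, 198 and 619 in MB002, D425, HD-MB03 and UW228 and was strong in every line. *SREBF1*, a target of LXR, ranked 1258, 49, 25 and 752. *DUSP1*, a phosphatase induced by glucocorticoids and stress, ranked 1129, 75, 232 and 2022. *TGM2*, a retinoic acid target, ranked 15 in UW228 and 750 in D425, against 9150 in MB002 and 6237 in HD-MB03. *ABCA1*, a cholesterol exporter under LXR, ranked 378 in UW228 and 851 in D425, against 4815 and 7704.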

How the data were processed

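ChIP-seq for H3K27Ac and input was compared among the G3-MB lines and UW228, with 1 library of each a line. Bowtie2 2.3.0, SAMtools 1.9 and MACS2 2.2.6 are named in the submitters' processing notes, with GRCh38. Per the methods, the authors removed duplicates, called peaks at a q of 0.05, excluded 2.5 kb around promoters and stitched peaks within 12.5 kb with ROSE. The header names 12 kb, and some regions still overlap a TSS. The deposited signal of each region is in rpm per base pair times its length, separately for H3K27Ac and input, and the deposited score columns are the ROSE rank and the SE call. Depth is not given, so precision from counts is unknown.

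Input was subtracted with a floor of 0 (Python 3.11.15, numpy 2.4.6, pandas 2.3.3; plots with matplotlib 3.10.9). The recomputed ranks were the deposited ranks in every region of the 4 lines. Gene bodies and TSSs came from GENCODE 44, and sequences and promoter windows from RefSeq. The assignment was tested on simulated regions. No columns were left unmapped. Receptors were named when strong in at least 1 line, those with no region by name only, and other lists by their 3 best genes in G3-MB lines and in UW228, except for genes not reported here. *RXRG* and the receptors with regions in G3-MB lines alone were named after their values were seen. The members and lists were chosen with earlier results of these data known. Alternatives were other treatments of input, other limits, other gene assignments, regions over a TSS left out, each G3-MB line left out and, chosen after seeing the data, the Ensembl canonical transcript.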

Additional observations from a re-analysis of the deposited data

How the results depend on the processing

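Of 120 alternative values of the counts of receptors, 89 stayed within 1.5 times the value above and 31 did not. In their best line, the strong calls of *NR4A2*, *RORA* and *NR4A3* were each lost under 1 of 14 settings, and those of *NR1H3* and *ESRRA* under 6 and 7. With 500 top-ranked regions 5 receptors were strong in MB002, 2 in D425 and 1 in UW228, against 4.45%, 5.07% and 3.3% of all genes, and 1 was strong in UW228 alone. With the limit doubled the counts of D425, HD-MB03 and UW228 were 12, 11 and 10, against 16.9%, 18.6% and 11.6% of all genes, with 7 strong in 2 or more G3-MB lines only and 5 in UW228 and a G3-MB line. With the top 5% the count of D425 was 7, against 12.3%. With the deposited SE call the counts of MB002, D425 and HD-MB03 were 4, 1 and 3, with 0 in 2 or more G3-MB lines. By mean signal per base pair they were 1 in MB002 and 1 in D425, with 1 in 2 or more G3-MB lines, against 9.51% and 8.74% of all genes in those lines. Without regions over a TSS the counts of MB002, D425 and HD-MB03 were 4, 2 and 1, with 1 in 2 or more G3-MB lines, against 5.77%, 6.62% and 6.63% of all genes. With the TSS window alone, UW228 had 2, both in UW228 alone. The count strong in UW228 and a G3-MB line, 0 above, was 1 with no input subtraction, 3 after division by relative input density, 1 with a TSS window of 100 kb and 1 with the closest gene alone. The closest gene alone gave 2 SE-associated receptors in MB002 and 3 in D425. With each G3-MB line left out in turn, 1 to 3 receptors were strong in 2 or more G3-MB lines, with 1 without MB002 and 1 without HD-MB03. *NR1I3* and *ESRRA* had no region in MB002 with the gene body alone, and *NR1I3*, *ESRRA* and *THRA* had none with the closest gene alone. The cause of these shifts was not tested. No paired analysis was possible because each line had 1 library. Single libraries of unknown depth limit every value.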

Other observations

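Receptors of photoreceptor development were looked at for their known role, after the values had been seen, since G3-MB lines carry *OTX2* and *CRX* enhancers. *NR2E3*, the rod photoreceptor receptor on chromosome 15, had its best region at ranks 3330, 5645, 4655 and 5399 in MB002, D425, HD-MB03 and UW228. The signal of that region was 6710, 3134, 2104 and 5025 in the same order. Its mean signal per base pair was 1.62, 1.57, 0.66 and 0.338, highest in MB002 and D425. In the G3-MB lines the region overlapped the gene, whereas that of UW228 lay outside it, 29.9 kb from the start. *RORB*, an orphan receptor of retina and cortex, ranked 9576, 7368 and 6155 in the G3-MB lines and had no region in UW228. *THRB*, the cone thyroid hormone receptor, ranked 1224, 3218, 8335 and 4144 in the same order. *RXRG*, its partner in cones, ranked 6160, 1151 and 4415 in the G3-MB lines, with signals of 3152, 14196 and 2258, and had no region in UW228. None of the 4 was strong in any line, although *THRB* was strong in UW228 when regions were ranked by mean signal per base pair. *RORB* and *RXRG* had regions in all 3 G3-MB lines and none in UW228. The same held for *ESRRG*, *HNF4G*, *NR1H2* and *RARG*, and the share over all genes was not counted.

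*NR2F2* and *VDR* were also chosen after their values had been seen. *NR2F2* (COUP-TFII) differed from *NR2F1* in its order of lines. Its best region had a signal of 15074 in UW228, 9237 in HD-MB03, 2891 in D425 and 2041 in MB002, at ranks 1588, 1336, 6000 and 8323. Over the median region of the line HD-MB03 was the highest, at 10.9 against 8.92 in UW228. *VDR*, the vitamin D receptor, had 14514 in UW228 and 10255 in MB002, against 133 in D425 and 409 in HD-MB03. Over the median region MB002 was the highest, at 11.5 against 8.59 in UW228. The UW228 region lay inside *VDR*, whereas that of MB002 lay 47.6 kb from its start with *COL2A1* as the closest gene.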
